A study of Mus musculus with 12 samples.

Results

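The family of miR-130 and miR-301 was followed through mouse granulopoiesis in whole cell, cytoplasmic and nuclear RNA. Its members were taken as the named assays whose name starts with miR-130 or miR-301 and carries no star, and 4 assays of 593 met this rule: miR-130a, miR-130b, miR-301a and miR-301b. The array cards hold 1 well per assay, and 269 of the 593 assays could be named. All cells came from the bone marrow of C57BL/6 mice and were isolated by fluorescence-activated sorting. The youngest were LSK cells (Lin-, Sca1+ and cKit+ cells, among them the blood stem cells), followed in maturation by promyelocytes, then myelocytes and then granulocytes. Each stage gave 1 whole cell, 1 cytoplasmic and 1 nuclear sample, 12 samples in all, read from 100 ng of RNA each. No agent or altered gene was used, and neither the labels nor the methods say how many mice gave a sample. Since each group holds 1 sample, and fractions of a stage are not replicates of it, stages were not compared by a test and every difference given here lacks a replicate check.

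MicroRNAs guide the silencing complex to messenger RNAs that pair with their seed, bases 2 to 8 counted from the 5′ end, so that miRNAs with a common seed are expected to have overlapping targets. The family of miR-130 and miR-301 is defined by such a seed and comes from several genes. Its members have been studied in blood stem and progenitor cells, in megakaryocytes and in tumours. A hairpin gives 2 arms, of which the guide is usually retained and the other, marked with a star in the older names, is usually the less abundant one.

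The mature sequences of 3 of the 4 members were matched in RefSeq (GRCm38.p6) and are shown with the seed in capitals, because the seed is what the members share and the rest is where they differ. The entry of miR-721, another assay with this seed, is set below them.
miR-130a: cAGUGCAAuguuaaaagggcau
miR-130b: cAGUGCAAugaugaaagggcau
miR-301a: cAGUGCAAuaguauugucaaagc
miR-721: cAGUGCAAuuaaaagggggaa
The first 10 bases of miR-130a and miR-130b are the same, and 20 of their 22 positions are identical. Between miR-130b and miR-301a the first 9 bases are the same and 11 of 22 compared positions are identical, so these members differ mainly in the 3′ portion. Of 1679 mature mouse names in the table, 7 carry this seed, and besides the members and miR-721 none of the 7 was among the named assays. The hexamer at bases 3 to 8 of the members also lies within the seed of miR-19a and miR-19b, one base nearer the 5′ end, and these were described as a near seed family.
miR-19a: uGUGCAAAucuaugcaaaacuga
miR-19b: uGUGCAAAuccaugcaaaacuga

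The members come from 3 places in the genome (GRCm38.p6). The hairpin of miR-130a lies alone at chr2:84741115-84741178 on the minus strand, next to Ypel4 and outside any other annotated gene. That of miR-301a lies at chr11:87113004-87113089 on the plus strand, within the span of Ska2, which encodes a spindle and kinetochore protein. The hairpins of miR-130b (chr16:17124061-17124142) and miR-301b (chr16:17124400-17124496) are neighbours on the minus strand, 257 bases apart, and both lie within the span of 2610318N02Rik. The annotation used gives gene spans only, so that exon and intron positions are not stated.

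The assay reads the CT, the cycle at which a product crosses a fixed threshold. The lower the CT, the more template there was, with 2-fold more for 1 cycle at full efficiency. Wells without a product are listed at 40, and an assay was counted in a comparison only with a CT under 30 in at least 1 of the compared stages. The number of assays under 40 ranged from 199 to 229 in nuclear samples and from 259 to 294 in the others. The LSK samples stood apart from the rest: the whole cell CT was above the cytoplasmic CT by a median of 1.32 cycles (83 named assays under 30 in both), whereas this median was -0.60 in promyelocytes, -0.12 in myelocytes and -0.48 in granulocytes. Which of both LSK samples departs from the others cannot be told apart, and values from LSK on are set beside those from promyelocytes on. Of 11 miRNAs listed as cell type markers, 8 were named. The progenitor miRNA miR-126-3p had a whole cell CT of 24.3 in LSK and 27.0 to 27.6 afterwards, and the myeloid miR-142-3p went from 25.3 in LSK to 20.6 in granulocytes, as miR-223 did from 24.0 to 16.4. The progenitor miRNAs miR-125b-5p and miR-99b also had their lowest CT in LSK, at 28.9 and 31.5. The lymphoid miR-150 had a CT of 28.8 at the promyelocyte stage and of 25.1 to 25.8 at the others, whereas miR-181a, also high in lymphoid cells, had its lowest CT of 28.97 there and 29.2 to 29.8 at the others. The erythroid miR-486 was listed at 40 in LSK and promyelocytes and at 31.5 and 31.7 in the later stages. The part of other cells in the results was not tested, and a lower level per cell cannot be told apart from fewer cells that carry a miRNA.

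The members parted during maturation. On scaled values, whole cell miR-130a was 15.4-fold lower in granulocytes than in LSK, whereas miR-301a was 6.57-fold and miR-301b 8.19-fold higher, and miR-130b lay between them at 1.16-fold higher. Without scaling the log2 change was -3.27 for miR-130a, 3.39 for miR-301a, 3.71 for miR-301b and 0.90 for miR-130b. The raw whole cell CT of miR-130a from LSK to granulocytes was 29.3, 30.1, 31.9 and 32.6. Its CT thus became higher at each stage and was under 30 in LSK only. The raw CT of miR-301b was 30.15, 28.03, 26.74 and 26.44 in the same order. That of miR-301a was 30.03, 28.64, 27.09 and 26.64. Both miR-301 members thus became more abundant, chiefly up to the myelocyte. Whole cell miR-130b had a CT of 29.7 at the LSK stage, 28.3 at the promyelocyte, 29.0 at the myelocyte and 28.8 at the granulocyte stage, which makes promyelocytes its highest stage.

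**Figure D1:**
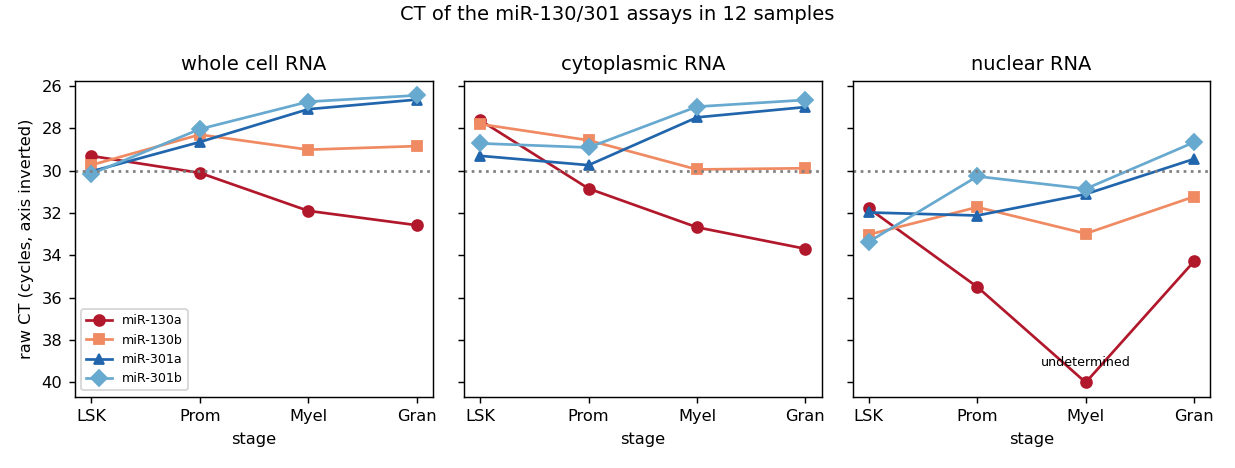
Raw CT of the 4 members (y axis, cycles, inverted so that more template is higher) by stage (x axis; Prom, promyelocytes; Myel, myelocytes; Gran, granulocytes) in whole cell, cytoplasmic and nuclear RNA. Each point is 1 well of 1 sample, and the dotted line marks a CT of 30. In each fraction miR-130a has the highest CT of the 4 from promyelocytes onwards, and its nuclear myelocyte well was undetermined.

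The LSK to promyelocyte step was the only one at which all 4 members had a CT under 30 in 1 of the whole cell samples. Here miR-301a and miR-301b passed this limit only through promyelocytes and miR-130a only through LSK, so that the limit favoured the direction of each. In whole cell RNA a log2 change is the CT difference between stages, from which the shift in the average CT of 3 assays, those at the end of card B, was subtracted. After this scaling 3 members were at least 2-fold higher in promyelocytes, where 33.7% of the 104 named assays were, and 1 was at least 2-fold lower, where 17.3% were. The log2 change was 1.87 for miR-301b, 1.19 for miR-130b, 1.14 for miR-301a and -1.05 for miR-130a, against a median of 0.43 over the 104 assays. Among these assays miR-301b held rank 14 from the highest and miR-130a rank 17 from the lowest. The direction of all 4 was the same under each scaling. The 2-fold limit was missed by miR-130a without scaling (-0.80) and by miR-130b (0.86) and miR-301a (0.81) with the mean CT of the named assays as the constant.

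From promyelocytes to myelocytes both miR-301 members were higher by 2-fold or more, at log2 changes of 1.56 for miR-301a and 1.31 for miR-301b. Of 112 named assays 42% were higher by this much, and the median log2 change was 0.75. Over this step miR-130b had a log2 change of -0.70, and miR-130a, above a CT of 30 in both stages, one of -1.78. With the mean CT of the named assays as the constant miR-301b came to 0.79 and miR-130b to -1.22. From myelocytes to granulocytes none of the 3 members under a CT of 30 reached 2-fold, where 17.5% of 120 named assays did. Their log2 changes were 0.01 for miR-301a, -0.14 for miR-301b and -0.27 for miR-130b, and those of miR-301b and miR-130b were above 0 without scaling.

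Over the whole course from LSK to granulocytes 2 members were higher by 2-fold or more in whole cell RNA, where 55.6% of 124 named assays were, and 1 was lower, where 16.1% were. The log2 change was 3.03 for miR-301b, 2.72 for miR-301a, 0.22 for miR-130b and -3.95 for miR-130a, against a median of 1.31. Both miR-301 members passed the CT limit only through granulocytes, and miR-130a only through LSK. The miR-301 members thus lay above the middle of the assays, at ranks 24 and 32 from the highest, and miR-130a was rank 7 from the lowest. Scaling by the mean CT moved every one of these changes by -0.84, which turned miR-130b to -0.62 and left the direction of the other members as it was. Without the LSK sample, from promyelocytes to granulocytes, the log2 change was 1.57 for miR-301a, 1.17 for miR-301b, -0.97 for miR-130b and -2.90 for miR-130a. The last was above a CT of 30 in both stages. Over this interval the median of 123 named assays was 1.06, and 52.8% were higher by 2-fold or more. The miR-301 members were thus near the middle, at ranks 49 and 55 from the highest. Scaled by the mean CT, miR-301b came to 0.66 and miR-130b to -1.47.

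**Figure D2:**
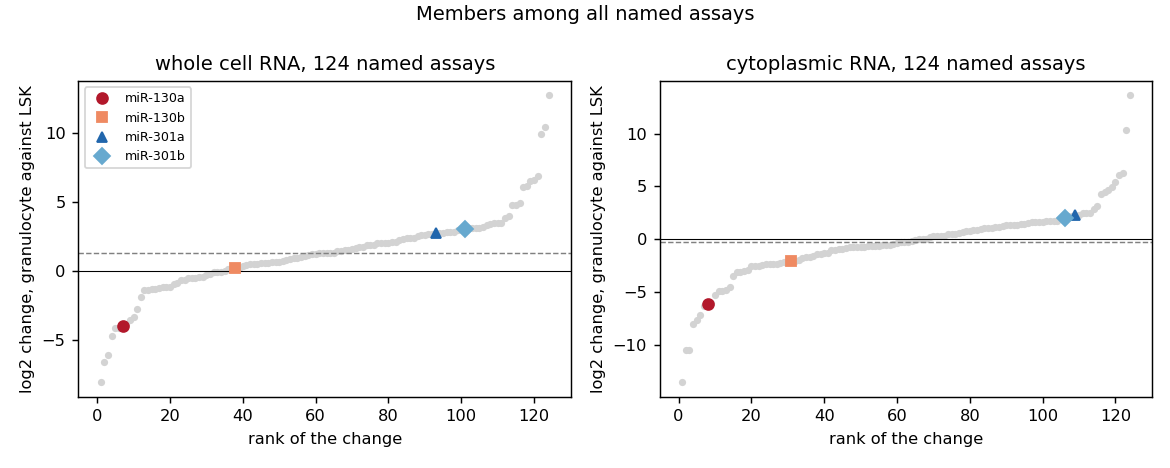
Log2 change from LSK to granulocytes (y axis) of 124 named assays, those whose CT was under 30 in either stage, ordered by size (x axis, rank), in whole cell RNA (scaled) and cytoplasmic RNA (not scaled). Grey points are single assays, coloured symbols the 4 members, the dashed line the median and the solid line 0. In both panels miR-130a is near the lower end, miR-130b below the median and both miR-301 members above it.

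Cytoplasmic RNA gave a separate reading of the same stages from its own preparation, and its CTs were compared without scaling. Cytoplasmic miR-130a had a CT of 27.6, 30.8, 32.7 and 33.7 from LSK to granulocytes, a log2 change of -6.08 over the course and rank 8 from the lowest of 124 named assays. Cytoplasmic miR-130b had a CT of 27.8, 28.6, 29.9 and 29.9 in the same order, a log2 change of -2.09. Both miR-130 members thus had their lowest raw cytoplasmic CT in LSK, while with either scaling that of miR-130b was lowest in promyelocytes. Cytoplasmic miR-301a had a CT of 29.3, 29.7, 27.5 and 27.0, a 4.94-fold higher level. Cytoplasmic miR-301b had a CT of 28.7, 28.9, 27.0 and 26.7, a 4.15-fold higher level. In this fraction the median log2 change of the 124 assays was -0.23, 33.9% were higher by 2-fold or more and 34.7% lower, so that the miR-130 and miR-301 members lay on opposite sides of the median. With the last 3 assays of card B as the constant, miR-301a came to 0.89 and miR-301b to 0.64, and no member turned its direction. Without LSK, from promyelocytes to granulocytes, the cytoplasmic log2 change was 2.74 for miR-301a, 2.25 for miR-301b, -1.32 for miR-130b and -2.85 for miR-130a. Of 110 named assays 58.2% were higher by 2-fold or more and 10.9% lower over this interval, and the median was 1.31. Among them miR-301a was at rank 26 and miR-301b at rank 37 from the highest, and miR-130b at rank 10 from the lowest. The last 3 assays of card B as the constant moved every cytoplasmic change over this interval by -3.27. The changes of miR-301a and miR-301b then turned to -0.52 and -1.02.

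The first step differed between the fractions where cytoplasmic values were not scaled. From LSK to promyelocytes the cytoplasmic log2 change was -3.23 for miR-130a, the only member to pass 2-fold, in a comparison where 64% of 111 named assays were lower by as much. It was -0.76 for miR-130b, -0.44 for miR-301a and -0.19 for miR-301b, against a median of -1.26, and these 3 were above 0 with either scaling. Taking the end assays of card B as the constant they came to 1.09, 1.41 and 1.66, each over 2-fold higher, and miR-130a to -1.38. Relative to the median of their fraction the 3 members were thus higher in promyelocytes and miR-130a lower in both fractions. From promyelocytes to myelocytes cytoplasmic miR-301a had a log2 change of 2.26 and miR-301b one of 1.93, where 54.5% of 110 named assays were higher by 2-fold or more. Over the same step miR-130b had one of -1.38, where 8.18% were lower by as much, and it was rank 7 from the lowest. With the last 3 assays of card B as the constant miR-301a came to 0.58 and miR-301b to 0.25, and with the mean CT to 1.20 and 0.87, while miR-130b stayed over 2-fold lower. From myelocytes to granulocytes no member under a CT of 30 reached 2-fold, where 22% of 109 did. Their log2 changes were 0.49 for miR-301a, 0.32 for miR-301b and 0.06 for miR-130b, and with the last 3 assays of card B as the constant all 3 were over 2-fold lower, at -1.10, -1.27 and -1.53. As a gauge of error, the change of an assay in whole cell RNA minus its change in cytoplasmic RNA had an SD across named assays of 0.69 cycles for LSK to promyelocytes (71 assays), 0.87 for promyelocytes to myelocytes (81 assays) and 0.65 for myelocytes to granulocytes (96 assays). This SD is across assays and between fractions, and does not stand for replicates. On these unscaled differences miR-130b was at 0.67 cycles from promyelocytes to myelocytes, against a median of -0.55 over the assays. From LSK to granulocytes it was at 2.98, against a median of 1.86. From myelocytes to granulocytes it was at 0.11, near the median of 0.27. From promyelocytes to myelocytes miR-301a was at -0.71 and miR-301b at -0.63, near the median.

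The difference between 2 members within a sample is the same under any scaling, since a constant of the sample drops out. The CT of miR-130b minus that of miR-301b, its neighbour on chromosome 16, from LSK to granulocytes was -0.42, 0.26, 2.27 and 2.40 in whole cell RNA. In cytoplasmic RNA it was -0.91, -0.34, 2.97 and 3.23, and in nuclear RNA -0.34, 1.46, 2.11 and 2.57. In each fraction the difference was lowest in LSK and highest in granulocytes. The nuclear CT of miR-130b was above 30 at every stage and that of miR-301b was under 30 only in granulocytes. Their nuclear differences are thus limited by detection. From LSK to granulocytes miR-301b thus gained on miR-130b by 2.81 cycles or 7.03-fold in whole cell, 4.14 cycles or 17.6-fold in cytoplasmic and 2.91 cycles or 7.51-fold in nuclear RNA. Without LSK, from promyelocytes on, the gain was 2.14 cycles in whole cell, 3.57 cycles in cytoplasmic and 1.11 cycles or 2.16-fold in nuclear RNA. Each assay has its own efficiency, so that only the change of such a difference between samples is read, not its sign in 1 sample.

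**Figure D3:**
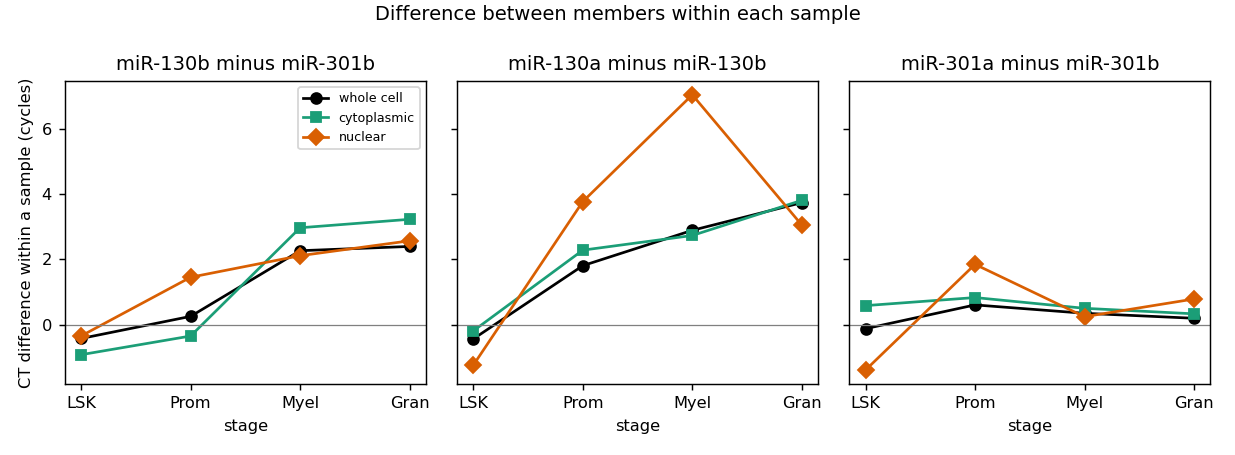
CT of 1 member minus the CT of another within each sample (y axis, cycles) by stage (x axis) in whole cell (black), cytoplasmic (green) and nuclear (orange) RNA; each point is 1 sample. The differences of miR-130b from miR-301b and of miR-130a from miR-130b are higher in granulocytes than in LSK in all 3 fractions. That of miR-301a from miR-301b spans 0.73 cycles in whole cell and 0.50 cycles in cytoplasmic RNA. Nuclear CTs of miR-130a and miR-130b were above 30 at every stage, and the nuclear myelocyte well of miR-130a was undetermined. Their nuclear difference was 3.77 in promyelocytes and 3.05 in granulocytes.

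The miR-301 members, from different chromosomes, kept together. The CT of miR-301a minus that of miR-301b lay between -0.12 and 0.61 in whole cell RNA and between 0.34 and 0.83 in cytoplasmic RNA. In nuclear RNA, where most of these CTs were above 30, it ranged from -1.38 in LSK to 1.85 in promyelocytes. The miR-130 members did not keep together. The CT of miR-130a minus that of miR-130b went through -0.43, 1.81, 2.89 and 3.74 from LSK to granulocytes in whole cell RNA, and through -0.18, 2.28, 2.73 and 3.81 in cytoplasmic RNA. The change from LSK to granulocytes was 4.17 cycles in the former and 3.99 in the latter, and from promyelocytes on it was 1.93 and 1.52 cycles. Over the same course miR-301b gained on miR-130a by 6.98 cycles in whole cell RNA and 8.13 cycles in cytoplasmic RNA, and from promyelocytes on by 4.07 and 5.09 cycles. From promyelocytes on miR-130a was above a CT of 30 in each of these samples, so that its differences there are limited by detection.

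Divergence of neighbours was set beside a list of 22 pairs of miRNAs from one genomic cluster, of which 14 had both assays named, under a CT of 30 in some whole cell stage and determined in all 4. For the pair of miR-130b and miR-301b the CT difference spanned 2.81 cycles over the whole cell stages and 4.14 over the cytoplasmic ones. The other 13 pairs, which share 17 miRNAs among them, had a median span of 1.20 cycles in whole cell and 1.67 cycles in cytoplasmic RNA. Wider spans than that of miR-130b and miR-301b were found for 2 pairs in whole cell RNA and 1 in cytoplasmic RNA. The pair with the widest span in both was let-7e and miR-125a-5p, with 6.84 and 6.37 cycles. These wider spans rested on LSK. Without LSK miR-130b and miR-301b spanned 2.14 cycles in whole cell and 3.57 cycles in cytoplasmic RNA, and 0 of the other 13 pairs were wider in either. The other pairs then had a median of 0.53 and a highest span of 1.26 cycles in whole cell RNA, and a median of 0.59 and a highest span of 1.47 cycles in cytoplasmic RNA. For let-7e and miR-125a-5p the spans without LSK were 1.26 and 0.87 cycles.

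**Figure D4:**
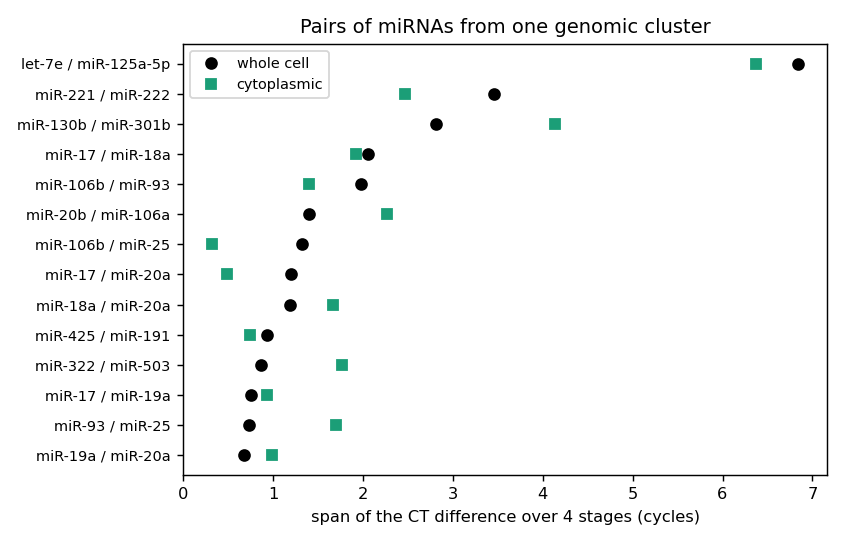
Span over the 4 stages (x axis, cycles) of the CT difference between 2 miRNAs of one genomic cluster, for 14 pairs (y axis), in whole cell (black circles) and cytoplasmic RNA (green squares). The pair of miR-130b and miR-301b is at 2.81 and 4.14 cycles, with 2 wider pairs in whole cell and 1 in cytoplasmic RNA when LSK is included, as here.

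The star strand of the miR-130b hairpin, miR-130b*, was also named, and it is shown because both arms of 1 precursor could be followed.
miR-130b*: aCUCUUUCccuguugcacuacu
Whole cell miR-130b* had a CT of 28.6, 28.4, 29.1 and 28.6 from LSK to granulocytes. Its raw cytoplasmic CT was 27.1, 28.2, 29.2 and 29.4, with the lowest CT in LSK as for miR-130b. Scaled by the last 3 assays of card B, both were lowest in promyelocytes. There miR-130b* was at 26.3 against 27.1 in LSK, and miR-130b at 26.7 against 27.8. The CT of the guide minus that of the star strand was 0.71, 0.39, 0.70 and 0.47 in cytoplasmic RNA, a span of 0.32 cycles. In whole cell RNA this difference was 1.12 in LSK and between -0.07 and 0.23 in the other stages. In nuclear RNA it went from 0.59 in LSK to -2.58 in myelocytes, with both CTs above 30. The arms of miR-130b thus kept closer to each other than miR-130b did to miR-301b in whole cell and cytoplasmic RNA.

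The assay most like each member was sought among 120 other named assays, over the 4 whole cell and 4 cytoplasmic samples, by the root mean square difference of the mean-centred CT. The nearest to miR-130a were miR-155 (0.27 cycles), miR-125b-5p (0.57 cycles) and miR-203 (0.74 cycles). Those nearest to miR-130b were let-7d (0.30 cycles), miR-101a (0.34 cycles) and its own star strand (0.38 cycles). For miR-301a they were miR-142-5p (0.24 cycles), miR-16 (0.25 cycles) and miR-301b (0.27 cycles). For miR-301b they were miR-27a (0.22 cycles), miR-15b* (0.26 cycles) and miR-301a (0.27 cycles). In both lists of 3 the other miR-301 member was thus present, while miR-130b was at rank 21 for miR-130a at 1.51 cycles. Over the 6 samples without LSK the nearest assay was still miR-155 for miR-130a (0.25 cycles) and miR-27a for miR-301b (0.13 cycles), and became miR-101a for miR-130b (0.22 cycles) and miR-532-5p for miR-301a (0.15 cycles). The miR-301 members were then 0.21 cycles apart, at ranks 4 and 5 of each other's lists, and miR-130b was at rank 7 for miR-130a at 0.72 cycles. In these 6 samples miR-130a had a CT above 30 throughout.

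The other assays with a like seed gave a readable change only for miR-19a and miR-19b. The CT of miR-721 was 33.6 or above in all 12 samples, so that no change of it was read. The near seed family members miR-19a and miR-19b, of the clusters around miR-17 and miR-106a, had whole cell log2 changes of 1.71 and 1.15 from LSK to promyelocytes and of -1.12 and -0.64 from promyelocytes to granulocytes. Their changes over the whole course were 0.59 and 0.51, and below 0 with the mean CT as the constant, as for miR-130b. In cytoplasmic RNA their unscaled log2 changes were -0.73 and -0.86 from LSK to promyelocytes and 0.51 and -0.02 from promyelocytes to granulocytes, where that of miR-130b was -1.32.

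Nuclear RNA gave less template than cytoplasmic RNA for all 4 members. The nuclear CT was above the cytoplasmic CT in each stage, by 0.59 to 5.22 cycles where the nuclear well was determined. Nuclear miR-130a had a CT of 31.8 in LSK, 35.5 in promyelocytes and 34.3 in granulocytes and was undetermined in myelocytes. Nuclear miR-130b had a CT of 33.0, 31.7, 33.0 and 31.2 from LSK to granulocytes. Nuclear miR-301a had a CT of 31.97, 32.11, 31.10 and 29.44, and nuclear miR-301b one of 33.4, 30.3, 30.9 and 28.6. Only the miR-301 members in granulocytes were thus under 30, and the other 14 of 16 nuclear CTs were above it. The labels give an equal amount of RNA for both fractions while the study describes the comparison as one of cell equivalents, so that the share of a miRNA within a cell is not read from these CTs. From myelocytes to granulocytes the nuclear log2 change was 1.66 for miR-301a and 2.20 for miR-301b. In this comparison 78.9% of 57 named assays were higher by 2-fold or more and the median was 1.35. Both members passed the CT limit only through granulocytes, where they were higher, so that a rise was favoured by the limit. With the mean CT as the constant the changes of both came to 0.49 and 1.04.

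The nuclear:cytoplasmic ratio was taken as 2 raised to the cytoplasmic minus nuclear CT and divided by 3, with a limit of 0.1 for a nuclear CT under 30. Of the 16 ratios of the members 2 had a nuclear CT under 30, and neither was over 0.1, where 10.5% of 57 named assays were in granulocytes. They were 0.0609 for miR-301a and 0.0834 for miR-301b, both in granulocytes, where the median of these 57 assays was 0.0568. Without the divisor of 3 both were over 0.1, as were 87.7% of these 57 assays. Among ratios with a nuclear CT above 30, miR-301b had 0.129 in promyelocytes, and in granulocytes miR-130b had 0.132 and miR-130a 0.222. The ratio of miR-130b from LSK to granulocytes was 0.00895, 0.0372, 0.0408 and 0.132, thus lowest in LSK. For named assays that had a cytoplasmic CT under 30 the median ratio was 0.0171, 0.0458, 0.0191 and 0.0552 in the same order, so that the ratios of most assays also were higher in promyelocytes and granulocytes. Among these assays miR-130b was rank 84 of 101 from the highest in LSK and rank 6 of 100 in granulocytes.

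**Figure D5:**
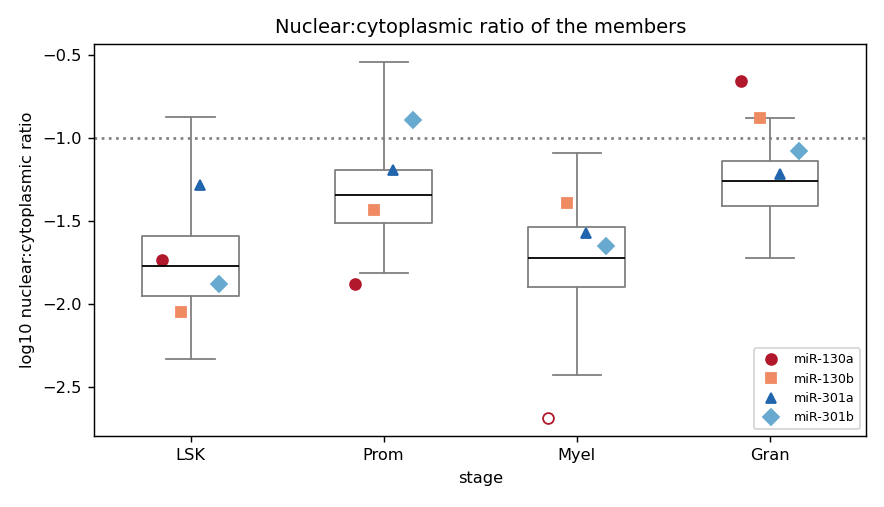
Nuclear:cytoplasmic ratio (y axis, log10) of the 4 members by stage (x axis). Boxes show the quartiles and median of all named assays whose cytoplasmic CT was under 30, with a determined nuclear well, with whiskers at the 5th and 95th percentiles; the dotted line marks a ratio of 0.1, and the open symbol is the undetermined nuclear well of miR-130a, an upper bound. Of the members miR-301b in promyelocytes and miR-130a and miR-130b in granulocytes lie above 0.1, each with a nuclear CT above 30.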

How the data were processed

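The authors read 100 ng of RNA per sample on rodent TaqMan array cards (A and B) in an ABI instrument, took CTs from its SDS and RQ Manager programs, and deposited these raw CT values, which are not normalized. All 12 data columns were used, 1 per sample. The deposited assays are numbered. An assay was named where its cytoplasmic and nuclear CTs matched those published with the study within 0.0005 cycles (246 assays), or else where its whole cell CT differences did so for the published changes within 0.002 cycles (23 assays), each match being unique. The published changes are not CT differences but lie on a straight line against them, with a slope of 1.71 and a constant for each pair of stages. This line was fitted on assays named in the first way and applied before the second. This named miR-130b and miR-301b in the first way and miR-130a and miR-301a in the second, where the next best assay was 0.77 and 0.42 cycles away. Besides the names, the choice of the scaling constant and the divisor of the ratio, which the methods do not state, were read from the published values.

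Members and lists were chosen with earlier results of these data known. Besides the members, the star strands, the assays with a like seed and the 3 nearest assays per member were named. Changes are CT differences, scaled in whole cell RNA by the last 3 assays of card B, with a fold limit of 2. Alternatives concerned the scaling, the CT and fold limits, the efficiency, undetermined wells and the divisor. With 1 sample per group no test was made. The precision of a single CT is unknown. The change between stages was tested on simulated whole cell CTs, and the naming on a reordered copy of the data. Python 3.11.15, numpy 2.4.6, pandas 2.3.3 and matplotlib 3.10.9 were used.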

Additional observations from a re-analysis of the deposited data

Results flagged for a closer look

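Scaled whole cell and unscaled cytoplasmic values gave changes of opposite sign, at least 1 cycle apart, in 4 comparisons of a member with LSK, and the difference between the fractions was not tested. From LSK to promyelocytes the log2 change was 1.19 in whole cell and -0.76 in cytoplasmic RNA for miR-130b, 1.14 and -0.44 for miR-301a, and 1.87 and -0.19 for miR-301b. From LSK to granulocytes it was 0.22 in whole cell and -2.09 in cytoplasmic RNA for miR-130b. The median change of all named assays under a CT of 30 also differed in sign between the fractions, at 0.43 and -1.26 for the first comparison and 1.31 and -0.23 for the second. Without scaling in either fraction all 4 stayed opposite in sign. With the mean CT as the constant in both, none was opposite: the values were 0.86 and 0.41, 0.81 and 0.73, 1.53 and 0.98, and -0.62 and -2.02 in the same order. With the last 3 assays of card B in both, the first 3 were above 0 in both fractions, at 1.19 and 1.09, 1.14 and 1.41, and 1.87 and 1.66, and the last stayed opposite at 0.22 and -3.50.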

How the results depend on the processing

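In whole cell RNA 6 member changes of 10 measurable ones reached 2-fold over the 3 steps, as did 40.2% of 336 changes of the named assays. It was 2 of 4 with a CT limit of 28 (36.0% of named), 1 of 10 with a fold limit of 3 (23.8%) and 2 of 6 without the LSK sample (35.3%), which leaves out 1 step and was chosen after seeing the data. The cytoplasmic count was 4 of 10 (52.4% of 330), and 8 of 10 with the last 3 assays of card B as the constant (60.0%). The nuclear count was 2 of 2 (64.5% of 155), both let in by the granulocyte CT only, and 1 of 2 with the mean CT as the constant (37.4%). It was 0 of 0 with a CT limit of 28, 8 of 10 with 32 (65.1%) and 9 of 11 with 35 (69.4%). Of 2 member ratios 0 were over 0.1 (16.2% of named), 2 of 2 were without the divisor (59.2%), 2 of 9 with a nuclear CT limit of 32 (15.7%) and 3 of 15 with none (26.0%). With the last 3 assays of card B as the constant, the change from promyelocytes to granulocytes turned to -0.52 for cytoplasmic miR-301a and -1.02 for cytoplasmic miR-301b, and that of nuclear miR-130b from promyelocytes to myelocytes to 0.16. These follow from the constant itself, which moved every cytoplasmic change from promyelocytes to granulocytes by -3.27. The change in the difference of miR-130b from miR-301b was between 2.14 and 4.14 cycles under the alternatives. Scaling drops out of it and the efficiency only multiplies it, so that neither could turn its direction. The remaining alternatives were the cytoplasmic and nuclear samples and leaving out LSK, the last chosen after seeing the data. In nuclear RNA, where miR-130b was above a CT of 30 at every stage, it was 1.11 cycles without LSK. No paired test between stages was possible because each group holds 1 sample and the labels give no replicate numbers that groups share. Fractions of a stage were set against each other only to describe their differences. Detection limits what can be read above a CT of 30, which holds for most nuclear CTs of the members.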
